A study of Homo sapiens with 10 samples.

Results

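The genes described here are NFE2L2, which encodes the transcription factor NRF2, and 8 genes that NRF2 is known to induce: GCLC, GCLM, SLC7A11, TXNRD1, SRXN1, NQO1, HMOX1 and ME1. They were taken by symbol from the gene count table, where each of the 9 was found on 1 of the 60898 rows. RNA was sequenced from 10 libraries whose cells carry the label neural progenitor cell (NPC) and derive from the established human embryonic stem cell line H1. There were 5 groups of 2 libraries. WT is the unedited line, KO1 and KO2 are a pair of STAMBP-KO lines, KO+STAMBP is STAMBP-KO with STAMBP added, and KO+CFLAR is STAMBP-KO with CFLAR added. STAMBP is a deubiquitinase of the endosomal sorting pathway, and CFLAR restrains caspase-8. The labels do not say how the gene was disrupted, whether a knockout line is 1 clone, which line received a construct, or whether libraries of the same group were grown as separate cultures. Every p-value below thus reflects library-to-library spread alone, and that spread may be technical.

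NRF2 is held at a low level in unstressed cells because KEAP1, an adaptor of the CUL3 ubiquitin ligase, marks it for degradation. Electrophiles and oxidants modify KEAP1, NRF2 then accumulates, pairs with a small MAF protein and binds antioxidant response elements, a site that the repressor BACH1 also occupies. Its targets supply glutathione, thioredoxin and NADPH, and degrade haem and quinones. Because NRF2 is controlled largely through protein stability, its transcript level is not a measure of its activity.

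The antioxidant response element is shown first, since it is the DNA feature that these genes are known to share. Its core, written TGACNNNGC, was searched on both strands in RefSeq promoter windows (GRCh38.p14) reaching from 250 bases before a transcription start to 50 bases after it. A window was found for 7 of the 9 genes, the others being HMOX1 and SLC7A11. The core was present for 3 of these 7, GCLM, TXNRD1 and ME1, against 16.1% of 27305 genes with a window of the same length. Of the windows themselves, 4 of the 9 that belong to these genes held a core, against 13.3% of 35116. The matches that lie wholly before the start are printed below 5′ to 3′ on the strand of the gene, with the 9 bases of the core in capitals; a core on the opposite strand reads GCNNNGTCA. Where GENCODE release 29 places an exon over any part of the match or its flanking bases, as at GCLM and the second TXNRD1 start, 30 bases are shown.
GCLM, chr1:93909445-93909474, minus strand: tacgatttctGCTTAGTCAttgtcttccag
TXNRD1, first start, chr12:104215635-104215733, plus strand: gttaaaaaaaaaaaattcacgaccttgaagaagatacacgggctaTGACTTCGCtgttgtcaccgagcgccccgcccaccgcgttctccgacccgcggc
TXNRD1, second start, chr12:104286920-104286949, plus strand: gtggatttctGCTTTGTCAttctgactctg
ME1, chr6:83431135-83431233, minus strand: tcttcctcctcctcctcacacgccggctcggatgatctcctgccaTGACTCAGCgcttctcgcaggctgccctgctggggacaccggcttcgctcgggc
The first base of the core lies 34 bases before the GCLM start, 99 and 102 bases before the 2 TXNRD1 starts and 137 bases before the ME1 start. TXNRD1 has a further match across its first start and ME1 1 that begins 11 bases after its start. The printed ME1 core contains TGACTCA, the site of AP-1 factors, so the same letters match both motifs. A match is a string of letters and not a measured binding site, and no match in these windows says nothing about sites farther away.

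**Figure D1:**
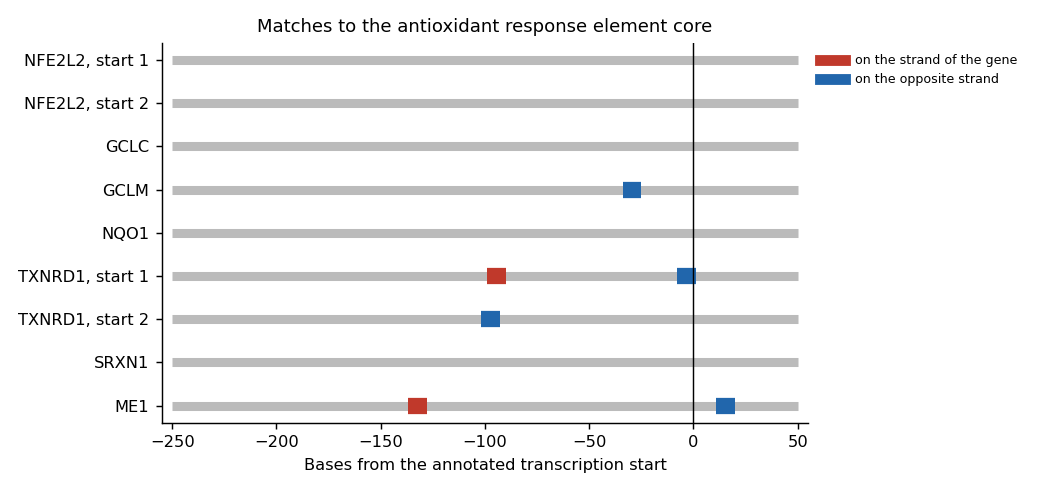
Position of each match to the antioxidant response element core in the promoter windows of 7 of the 9 genes. The x axis gives bases from the annotated transcription start, grey bars are the windows, and colour gives the strand of the match. GCLM, TXNRD1 and ME1 hold matches, and the windows of NFE2L2, GCLC, NQO1 and SRXN1 hold none.

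The libraries held 16495116 to 20832700 counts, and a member's level rested on 30 to 20979 counts in a library. Levels are in CPM, a gene's count relative to the total count of its library, with the totals scaled by TMM factors. Their SD is over n = 2 libraries, and over n = 4 where KO1 and KO2 are pooled as the knockout. STAMBP was at 43.3 and 47.1 CPM in WT, 16.9 to 19.5 CPM in the knockout libraries and 40.4 and 45.2 CPM in KO+STAMBP. STAMBP stood at 42.8 and 40.0 CPM, and CFLAR at 31.3 and 29.4 CPM, in the libraries labelled KO+CFLAR. CFLAR itself was at 34.1 and 30.3 CPM in WT and between 246 and 264 CPM in the knockout. They thus go against their label in both genes, and every direction given for them below rests on that label. Cell-type markers moved with the knockout as well. The summed level of 8 epithelial markers (among them KRT8, KRT18 and CDH1) was 31.6 to 33.1 CPM in WT, 7792 to 8254 in the knockout, 60.7 to 62.9 in KO+STAMBP and 52.8 to 54.5 in the libraries labelled KO+CFLAR, and all 8 rose in the knockout. For 8 neural progenitor markers the sums were 5095 to 5143 CPM, 933 to 955, 2466 to 2483 and 2562 to 2659.9 in the same order, with 7 lower and PAX6 higher in the knockout. SOX1 and FABP7 were below 1 CPM there (0.479 and 0.445), while NES was at 659.9 CPM and PAX6 at 208 CPM. Of 6 neuron markers, summing to 3320 to 3407 CPM in WT and 683 to 707 in the knockout, all 6 fell. They summed to 5010.1 to 5064 CPM in KO+STAMBP and 5065 to 5163 CPM in the libraries labelled KO+CFLAR, above WT. Against WT, 5 of the 6 were called higher in each rescue group, and MAP2 was lower in KO+STAMBP. Of 6 mesenchyme markers, at 95.5 to 102 CPM in WT and 2074 to 2154 CPM in the knockout, 4 rose and 1 fell in the knockout. NEUROD6, a neuron marker, was at 0 counts in 3 of the 4 knockout libraries, and KRT7, an epithelial one, in 1 WT library. Of 4 macrophage or microglia markers, summing to 0.93 to 0.977 CPM in WT and 32.5 to 38.2 CPM in the knockout, CD68 and CSF1R rose and PTPRC fell, with AIF1 at 0 counts in 2 knockout libraries. The PTPRC fall rests on few counts, from 0.321 CPM in WT to 0.0944 CPM in the knockout, with 1 knockout library at 0. Pluripotent cell markers summed to 2.15 to 3.08 CPM and 23.2 to 26.8 CPM, with LIN28A and DPPA4 higher, and astrocyte markers to 34.2 to 35.2 CPM and 0.976 to 1.27 CPM, with AQP4 and S100B lower. In both rescue groups these 3 sums were at most 4.53 CPM. The differences in the 9 genes below are differences between libraries of unlike marker content, and the part of that content in them was not tested. In bulk RNA, fewer cells of a type and less RNA per cell cannot be told apart.

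Loss of STAMBP was examined first, as the equal-weight mean of KO1 and KO2 against WT. All 9 genes rose in the knockout, from 4.32-fold for NFE2L2 to 27.2-fold for ME1, at adjusted p from 1.86e-17 to 6.48e-12 (edgeR quasi-likelihood test over 21063 genes). This transcriptome differed widely: 76.2% of all tested genes were called in KO vs WT, with 36.8% of the tested genes higher and 39.4% lower. Their median log2 change was 3.28, against -0.04 over all genes tested. Every knockout library lay above every other library in each of the 9 genes, a pattern found in 33.9% of all tested genes. The members were picked as one known pathway with results of these libraries in view, so their common direction is a description.

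The factor itself is given before its targets. NFE2L2 (ENSG00000116044, chromosome 2, 177227595 to 177392697, minus strand, GRCh38) was at 52.4 and 52.1 CPM in WT, 222 and 225 in KO1, 229 and 227 in KO2, 53.5 and 49.7 in KO+STAMBP and 50.7 and 53.5 in the libraries labelled KO+CFLAR. The 4 knockout libraries stand together and the other 6 cannot be ordered. The rise was 2.11 ± 0.04 on the log2 scale (SE, adjusted p = 3.58e-15), the smallest of the 9. On the opposite strand the annotated gene overlaps AGPS, whose row held 12629 counts over the 10 libraries against 21111 for NFE2L2. AGPS itself changed by 0.18 ± 0.06 in KO vs WT. Whether reads were shared between the overlapping genes was not tested, and the strand setting is not given.

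Glutathione synthesis comes next. GCLC and GCLM encode the catalytic and modifier subunits of glutamate-cysteine ligase, which carries out the rate-limiting step, and SLC7A11 is the cystine importer that supplies its cysteine. GCLC (ENSG00000001084, chromosome 6, 53497341 to 53616970, minus strand) was at 28.3 and 31.5 CPM in WT, 165 and 165 in KO1, 159 and 165 in KO2, 41.3 and 42.7 in KO+STAMBP and 41.9 and 39.4 in the libraries labelled KO+CFLAR. Both rescue groups thus lay between WT and the knockout without overlap with either. How many of all tested genes have rescue libraries apart from WT was not counted, here or for the genes below. GCLM (ENSG00000023909, chromosome 1, 93885205 to 93909456, minus strand) was at 17.6 and 17.0 CPM in WT, 78.0 and 73.0 in KO1, 80.4 and 77.0 in KO2, 17.0 and 14.0 in KO+STAMBP and 16.9 and 13.9 in the libraries labelled KO+CFLAR. Here the rescue libraries lay at or below WT, with values that touch it. The knockout rises were 2.45 ± 0.05 for GCLC (adjusted p = 6.05e-15) and 2.16 ± 0.08 for GCLM (adjusted p = 6.48e-12). SLC7A11 (ENSG00000151012, chromosome 4, 138164097 to 138242349, minus strand) was at 17.2 and 15.0 CPM in WT, 265 and 252 in KO1, 246 and 238 in KO2, 10.9 and 11.8 in KO+STAMBP and 11.7 and 10.2 in the libraries labelled KO+CFLAR. It rose 15.6-fold in the knockout (log2 3.96 ± 0.06, adjusted p = 2.7e-16), and all 4 rescue libraries lay below both WT libraries.

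The thioredoxin branch was represented by TXNRD1, the cytosolic selenoprotein that reduces thioredoxin with NADPH, and SRXN1, which repairs over-oxidised peroxiredoxins. TXNRD1 (ENSG00000198431, chromosome 12, 104215779 to 104350305, plus strand) was at 145 and 150.3 CPM in WT, 1154 and 1119 in KO1, 1146 and 1167 in KO2, 139 and 146 in KO+STAMBP and 140.1 and 139 in the libraries labelled KO+CFLAR. It rose 7.76-fold (log2 2.96 ± 0.04, adjusted p = 1.86e-17). EID3, which lies inside TXNRD1 on the same strand, held 0.206% as many counts and rose as well (2.63 ± 0.41). SRXN1 (ENSG00000271303, chromosome 20, 646615 to 653370, minus strand) was at 13.0 and 13.2 CPM in WT, 160.3 and 156 in KO1, 165 and 162 in KO2, 11.5 and 9.99 in KO+STAMBP and 9.3 and 10.1 in the libraries labelled KO+CFLAR. Its rise was 12.2-fold (log2 3.61 ± 0.06, adjusted p = 3.68e-16), and the rescue libraries sat below WT without overlap.

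NQO1, HMOX1 and ME1 detoxify quinones, degrade haem and make NADPH from malate. NQO1 (ENSG00000181019, chromosome 16, 69706996 to 69726951, minus strand) was at 24.9 and 23.9 CPM in WT, 229 and 249 in KO1, 236 and 237 in KO2, 23.8 and 25.0 in KO+STAMBP and 18.1 and 18.2 in the libraries labelled KO+CFLAR. It rose 9.74-fold (log2 3.28 ± 0.05, adjusted p = 2.4e-16), and here the 2 rescues part: KO+STAMBP overlapped WT and the other lay below it. HMOX1 (ENSG00000100292, chromosome 22, 35380361 to 35394214, plus strand) was at 4.19 and 3.52 CPM in WT, 78.9 and 74.7 in KO1, 74.6 and 73.1 in KO2, 2.52 and 2.46 in KO+STAMBP and 2.0 and 2.4 in the libraries labelled KO+CFLAR. The rise was 19.7-fold (log2 4.30 ± 0.09, adjusted p = 4.13e-15). ME1 (ENSG00000065833, chromosome 6, 83210389 to 83431071, minus strand) was at 1.74 and 2.05 CPM in WT, 49.8 and 53.2 in KO1, 50.9 and 54.4 in KO2, 2.68 and 2.3 in KO+STAMBP and 1.91 and 1.45 in the libraries labelled KO+CFLAR. The ME1 level in WT rested on few counts, and the gene rose 27.2-fold (log2 4.76 ± 0.12, adjusted p = 3.6e-14). Of all tested genes, 4.0% rose by a larger log2 change than ME1 and 11.2% by a larger one than NFE2L2.

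**Figure D2:**
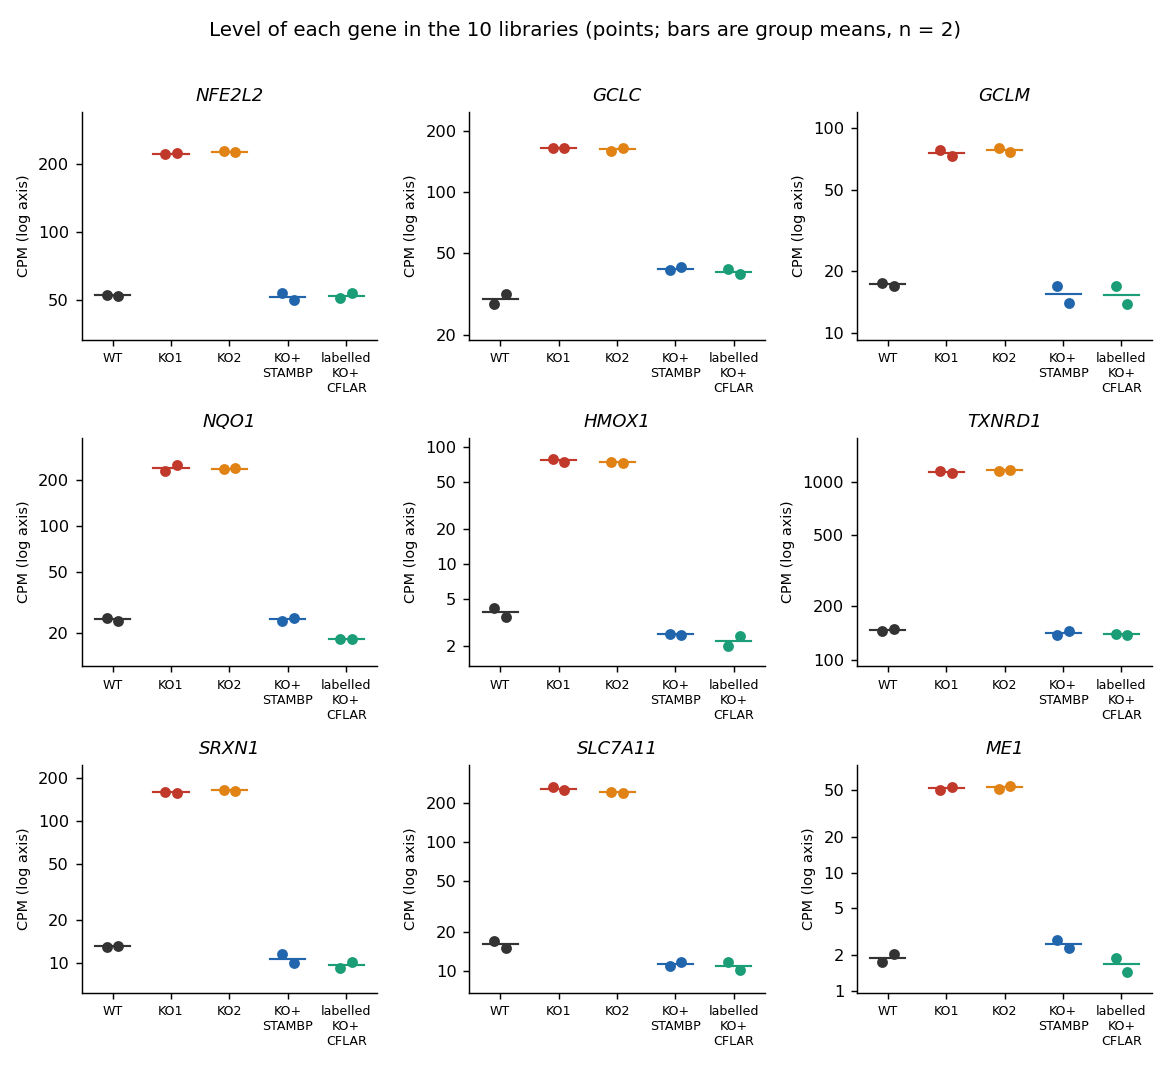
Level of each of the 9 genes in CPM (log axis) in the 10 libraries, 2 points per group with a bar at their mean. In each panel the 4 knockout points stand above the other 6. The rescue points sit above WT for GCLC and below WT for SRXN1, SLC7A11 and HMOX1. How many of all tested genes part from WT in this way was not counted.

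Levels of different genes were compared per kilobase of annotated exon, on which scale the order of the genes changed between groups. In WT, TXNRD1 was highest at 22.0 ± 0.56 CPM per kb, followed by NFE2L2 at 8.74 ± 0.043 and NQO1 at 7.50 ± 0.21. SRXN1, GCLC and GCLM followed at 4.86, 3.46 and 3.19 CPM per kb. SLC7A11 and HMOX1, at 1.67 ± 0.16 and 1.6 ± 0.2, were the single pair of neighbours whose libraries overlapped, and ME1 was last at 0.563 ± 0.065. In the knockout, TXNRD1 again led at 171 ± 3.0 CPM per kb, NQO1 (73.0 ± 2.5) and SRXN1 (59.5 ± 1.3) had passed NFE2L2 (37.8 ± 0.52), and GCLM was last at 14.2 ± 0.57, overlapping ME1 at 15.4 ± 0.62. In KO+STAMBP the order was that of WT except that GCLC, at 4.86 CPM per kb, lay above SRXN1, at 3.98, and the libraries labelled KO+CFLAR had the same order as KO+STAMBP. These ranks rest on exon lengths from GENCODE release 29, and TXNRD1 and SLC7A11 are on rows that carry an assembled-locus name (MSTRG) beside the Ensembl identifier, whose true length is not given.

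The knockout lines were compared with each other, which asks whether the rise depends on the line. None of the 9 genes was called in KO1 vs KO2 by edgeR, with 0 at an unadjusted p below 0.05 and 0 by DESeq2; 0.157% of all tested genes were called. The differences ran from -0.06 ± 0.08 for GCLM to 0.10 ± 0.05 for SLC7A11 on the log2 scale, small beside rises of 2.11 and more. A missed threshold does not show equality, and these standard errors give the resolution.

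Added STAMBP was examined in KO+STAMBP against the same knockout mean. All 9 genes fell, with log2 changes from -1.96 (GCLC) to -4.91 (HMOX1), with a median of -3.28 against 0.04 for all genes. In this comparison 77.9% of all tested genes were called and 37.8% were lower. HMOX1 fell by 4.91 ± 0.09 (adjusted p = 2.03e-15), SLC7A11 by 4.46 ± 0.07 (adjusted p = 1.31e-16) and ME1 by 4.38 ± 0.11 (adjusted p = 4.73e-14). NFE2L2 fell by 2.13 ± 0.04 (adjusted p = 2.94e-15). The libraries labelled KO+CFLAR, set against the same knockout libraries, had all 9 lower as well, with 78.0% of all tested genes called and 38.0% lower. Their changes ran from -2.01 ± 0.05 (GCLC) to -5.09 ± 0.09 (HMOX1), with a median of -3.71. Both comparisons share the 4 knockout libraries, so the likeness of their values is not independent evidence.

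**Figure D3:**
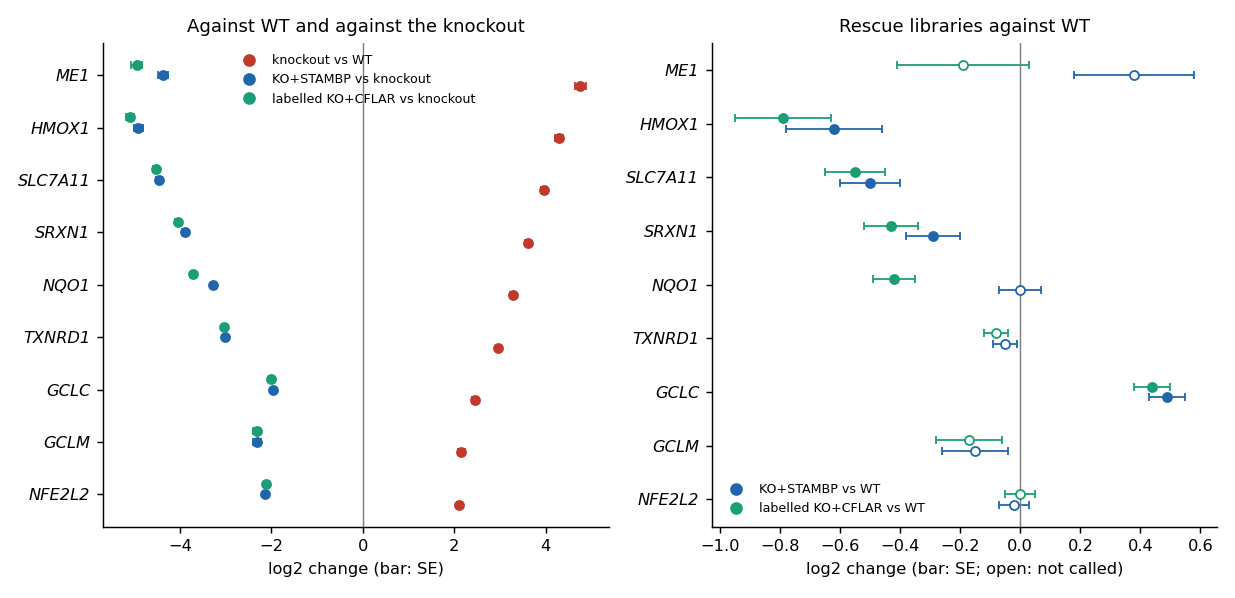
Log2 change of each gene with its SE. Left, knockout vs WT and both rescues vs the knockout; right, both rescues vs WT, where open points were not called. The left panel shows changes of 2.11 to 4.76 and of -1.96 to -5.09; on the right, GCLC lies above 0 and HMOX1, SLC7A11 and SRXN1 below 0 in both rescues.

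What difference from unedited cells remained was read from the rescues against WT. GCLC stayed higher than WT in both rescues, and HMOX1, SLC7A11 and SRXN1 were lower. NFE2L2, GCLM, TXNRD1 and ME1 were not called in either rescue. In KO+STAMBP 4 of 9 were called, 1 higher and 3 lower, where 34.9% of all tested genes were called. For the libraries labelled KO+CFLAR it was 5 of 9, 1 higher and 4 lower, where 33.7% of all tested genes were called. GCLC was at 141% and 136% of WT (log2 0.49 ± 0.06, adjusted p = 3.15e-05, and 0.44 ± 0.06, adjusted p = 7.58e-05). SLC7A11 was at 70.4% and 67.9% of WT (-0.50 ± 0.10, adjusted p = 0.0011, and -0.55 ± 0.10, adjusted p = 0.000434). HMOX1 was at 64.7% and 57.1% (-0.62 ± 0.16, adjusted p = 0.00896, and -0.79 ± 0.16, adjusted p = 0.00161). SRXN1 was at 82.0% and 74.1% (-0.29 ± 0.09, adjusted p = 0.0233, and -0.43 ± 0.09, adjusted p = 0.00165). NFE2L2 differed from WT by -0.02 ± 0.05 and 0.00 ± 0.05. In KO+STAMBP the calls of HMOX1 and SRXN1 rest on single libraries. HMOX1 was not called without WT replicate 1 (-0.50, adjusted p = 0.0898) or without KO+STAMBP replicate 2 (-0.60, adjusted p = 0.0539), and its adjusted p ran from 0.00742 to 0.0898 over the alternatives. SRXN1 was not called without WT replicate 1, WT replicate 2 or KO+STAMBP replicate 2 (-0.30, -0.27 and -0.19, adjusted p = 0.0613, 0.114 and 0.236), nor by DESeq2 (adjusted p = 0.0713) or with a fit of the 2 groups alone (adjusted p = 0.066), over a range of 0.017 to 0.236.

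The rescues were set against each other to ask whether they differ. NQO1 alone of the 9 was called, lower in the libraries labelled KO+CFLAR than in KO+STAMBP by -0.43 ± 0.07 (adjusted p = 0.012), where 1.09% of all tested genes were called. It was 74.5% of WT in the former and 100.1% in the latter. The call was lost without KO+STAMBP replicate 1, KO+STAMBP replicate 2 or the first library labelled KO+CFLAR (-0.46, -0.39 and -0.42, adjusted p = 0.0724, 0.16 and 0.0916), and its adjusted p ran from 1.59e-05 to 0.16 over the alternatives. ME1 had the widest difference of the others, -0.57 ± 0.20 (adjusted p = 0.244), which did not pass.

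The subunits of glutamate-cysteine ligase did not move in step, a contrast chosen after their values were seen and not tested. The ratio of GCLC to GCLM, per length, was 1.01 and 1.16 in WT, 1.24 to 1.42 in the 4 knockout libraries, 1.52 and 1.90 in KO+STAMBP and 1.55 and 1.78 in the libraries labelled KO+CFLAR. The ratio was thus lowest in WT and highest in the rescues, where GCLC was above WT and GCLM was not called.

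Other genes of the pathway were counted on lists that share no gene with the 9, again beside the 36.8% and 39.4% of all genes called higher and lower in KO vs WT. Of 19 genes that control NRF2, 17 rose and 2 fell (median 0.61). They act in opposite directions. SQSTM1, an autophagy receptor that sequesters KEAP1 and is itself an NRF2 target, went from 101 ± 3.4 to 1426 ± 15 CPM (log2 3.82 ± 0.03, adjusted p = 1.08e-18). BACH1, the repressor that competes at antioxidant response elements, rose from 44.5 ± 2.6 to 184 ± 3.5 CPM, and MAFG, a small MAF partner, from 48.8 ± 0.89 to 130.1 ± 6.8 CPM. KEAP1 rose less, from 41.4 ± 0.37 to 62.9 ± 2.5 CPM (0.61), as did CUL3 (0.19) and NFE2L1, a relative of NFE2L2 (0.50).

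Genes of glutathione supply went both ways, 7 higher and 8 lower of 18 tested (median 0.25). SLC3A2, the partner chain of SLC7A11, rose from 100.1 ± 5.8 to 344 ± 8.2 CPM. GSR, which regenerates reduced glutathione, rose from 53.2 ± 1.8 to 224 ± 12 CPM, and CHAC1, which degrades glutathione, from 4.01 ± 0.90 to 12.7 ± 1.6 CPM. GSS, which completes glutathione from the product of GCLC and GCLM, fell by 0.35 on the log2 scale (52.9 ± 4.1 to 41.6 ± 1.4 CPM). CBS, which starts the route from homocysteine to cysteine, fell by 1.10, and CTH, which ends it, was at 7.25 ± 0.85 and 7.86 ± 0.53 CPM (adjusted p = 0.468). Among 26 genes of glutathione use, 14 rose and 8 fell (median 0.38). The transferase MGST1 rose from 5.04 ± 0.96 to 90.0 ± 5.0 CPM, the exporter ABCC1 from 20.2 ± 1.2 to 94.9 ± 3.3 and GSTP1 from 172 ± 9.3 to 437 ± 9.2. GPX1 rose by 0.55 and GPX4, the lipid peroxide reductase, was at 141 ± 7.7 and 140 ± 6.9 CPM (-0.01 ± 0.05, adjusted p = 0.878).

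In the thioredoxin system 9 genes rose and 5 fell of 15 (median 0.53). TXN went from 54.1 ± 4.0 to 246 ± 14 CPM and PRDX1 from 172 ± 3.8 to 344 ± 12 CPM, and TXNIP, which inhibits thioredoxin, rose too, from 249.8 ± 1.2 to 632 ± 13 CPM. For NADPH supply 8 rose and 6 fell of 16 (median 0.13). PGD, an NADPH-producing enzyme of the pentose phosphate pathway, rose by 0.82 on the log2 scale. Of 13 haem and iron genes 10 rose and 2 fell (median 0.71). The ferritin chains FTH1 and FTL, which store the iron that haem breakdown releases, went from 818 ± 34 to 4286 ± 36 CPM and from 267 ± 3.9 to 3192 ± 98 CPM. Both ferritins have many processed pseudogenes, so their counts depend on how shared reads were assigned.

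A further 21 tested NRF2 targets gave 17 higher and 2 lower (median 1.02). AKR1C1, an aldo-keto reductase whose counts may be shared with its close paralogs, went from 13.1 ± 1.0 to 122 ± 1.2 CPM. OSGIN1 went from 1.10 ± 0.16 to 30.4 ± 1.5 CPM. A list of other antioxidant enzymes together with subunits of the oxidases that make superoxide or peroxide gave 5 higher and 3 lower of 10 (median 0.26). Of the 5 that rose, CYBA, DUOX1 and NOX4 belong to the oxidases and SOD2 and SOD3 are antioxidant enzymes; CYBA, DUOX1, NOX4 and SOD3 are named after their values were seen. SOD2, the mitochondrial superoxide dismutase, rose by 0.69, the cytosolic SOD1 fell by 0.46 and catalase (CAT) fell by 0.96. SLC7A11 is also induced by ATF4, and of 17 tested genes on that list 13 rose and 2 fell (median 0.98). ATF4 itself rose by 0.65 and ASNS, asparagine synthetase, by 0.39. SESN2 and CHAC1 stand on the ATF4 list and on another list above, so these counts are not independent. The median of the 9 genes, 3.28, lay above that of each of the 9 related lists, 0.13 to 1.02, which is a description, since the 9 were picked as induced targets.

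**Figure D4:**
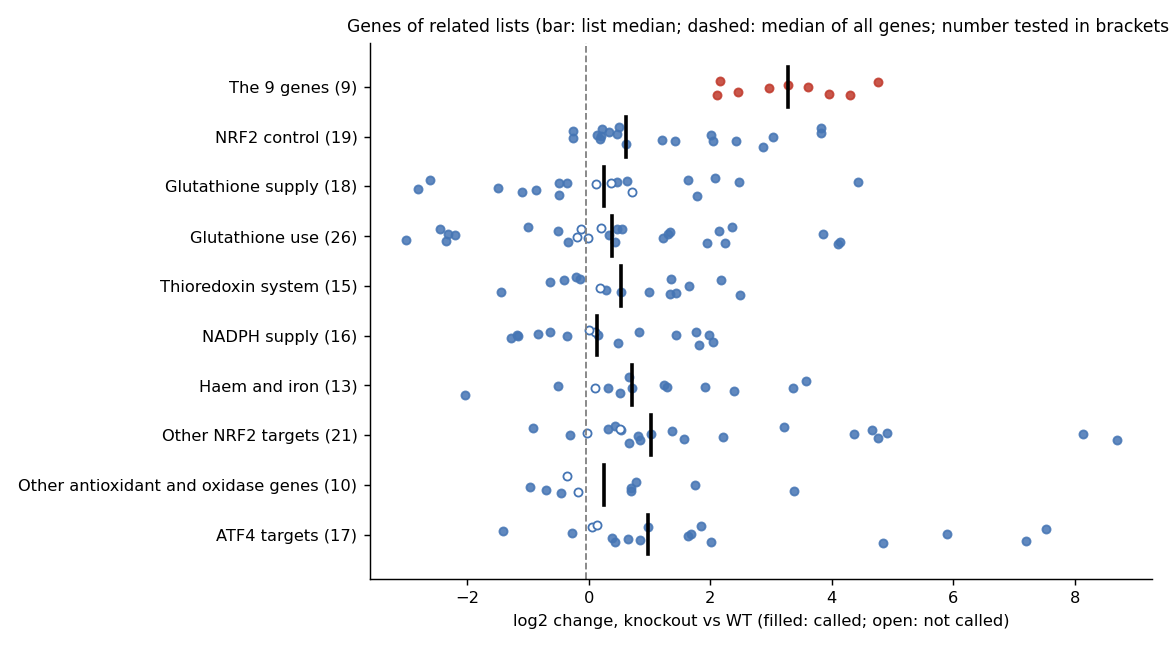
Log2 change in knockout vs WT for each tested gene of the 9 genes and of 9 related lists; filled points were called, open points were not. Black bars mark list medians (3.28 for the 9 genes, 0.13 to 1.02 for the others), and the dashed line marks the median of all tested genes, -0.04.

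In KO+STAMBP against the knockout, 7962 of all 21063 tested genes (37.8%) were lower and 8441 were higher. Beside these counts, the related lists differed in how uniformly they fell. Among control genes 16 of 19 were lower and 3 higher, among further NRF2 targets 17 and 3 of 21, among ATF4 genes 14 and 3 of 17, and among haem and iron genes 11 and 2 of 13. The thioredoxin system had 10 lower and 4 higher of 15, and the antioxidant and oxidase list 6 and 2 of 10. Glutathione supply (9 lower and 7 higher of 18), glutathione use (14 and 7 of 26) and NADPH supply (9 and 5 of 16) were mixed. SQSTM1 was at 117 ± 0.85 CPM there, and its level was 102 ± 0.32 CPM in the libraries labelled KO+CFLAR. KEAP1, BACH1, MAFG and GSR, at 39.8 ± 3.2, 43.4 ± 1.1, 47.5 ± 4.1 and 54.7 ± 0.95 CPM in KO+STAMBP, were not called against WT. SQSTM1 stayed 0.21 above WT on the log2 scale (adjusted p = 0.00047). Others did too: FTL by 0.35, FTH1 by 0.24, MGST1 by 0.72 and AKR1C1 by 0.71 on the log2 scale (adjusted p = 3.4e-05, 8.1e-05, 0.00133 and 5.46e-06). NFE2L1 and GPX1 lay below WT by -0.34 and -0.38 (adjusted p = 3.48e-06 and 9.27e-05). Of all tested genes, 34.9% were called in KO+STAMBP vs WT, and 46.9% of those called were higher. Lying on both sides of WT thus does not set these named genes, or the 9, apart from other genes. In the libraries labelled KO+CFLAR, SQSTM1 and MGST1 were not called against WT.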

How the data were processed

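RNA sequencing measured 10 libraries of H1-derived cells. RNA was taken up in Trizol and 1 ug of total RNA went into Illumina TruSeq libraries, per the labels' protocols. The deposited values are whole-number counts per gene on 60898 rows; the tools RSEM 1.2.4, fastp 0.20.0 and DESeq2 and the builds GRCh38 and hg38 come from the submitters' processing notes, which give no order. Strand setting, annotation release and rounding are not given in the sources used here. Rows with no Ensembl identifier (667, 0.33% of counts) were kept.

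The counts were fitted with edgeR 4.0.16 in R 4.3.3 (TMM factors, filterByExpr, quasi-likelihood test, Benjamini-Hochberg adjustment over 21063 genes holding 99.9% of counts). All 5 groups shared 1 fit with 5 residual degrees of freedom, a gene was called at an adjusted p below 0.05, and the knockout was the equal-weight mean of KO1 and KO2. A count of 0 allows up to 3 counts, and counting error alone is covered by that limit. Groups came from the labels. Alternatives were DESeq2 1.42.0, other scalings and filters, a replicate block, the compared groups alone and leaving out each library. Comparisons with the knockout mean were also made with KO1 alone and KO2 alone as the knockout. KO vs WT and KO+STAMBP vs KO were also fitted without the libraries labelled KO+CFLAR. The fit was tested on simulated data. Far fewer genes were changed in the simulation than were called here, so it does not cover a difference as wide as this. The text names the 9 genes, STAMBP and CFLAR as a label check, and preset genes of the related lists; the members and lists were chosen with earlier results of these data known.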

Additional observations from a re-analysis of the deposited data

Results flagged for a closer look

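GCLC in the lowest of the 4 knockout libraries, KO2 replicate 1, was at 159 CPM, while the other 3 lay at 165 CPM. The gap made up 0.959 of the range of the 4. Chance marks about 1 group in 20 in this way, and the rule was applied to all 9 genes. The value is still far above the 28.3 to 42.7 CPM of GCLC in the other 6 libraries.

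NQO1 differed by -0.43 on the log2 scale in the libraries labelled KO+CFLAR against KO+STAMBP (edgeR, adjusted p = 0.012). In this comparison 1.09% of all tested genes were called. Both libraries labelled KO+CFLAR were lower than both KO+STAMBP libraries, an order whose share over all genes was not counted. The call was lost on leaving out any of 3 of the 4 libraries.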

How the results depend on the processing

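All 9 genes were called in KO vs WT, KO+STAMBP vs KO and KO+CFLAR vs KO under each alternative run, and each of their 180, 180 and 171 values kept its direction and call. Without a filter on low counts, which adds genes to the denominator, the share of all genes called was 43.3%, 44.2% and 44.4% in these comparisons, 19.4% and 18.8% for KO+STAMBP and KO+CFLAR vs WT, 2.01% for KO+CFLAR vs KO+STAMBP and 0.645% for KO1 vs KO2. By DESeq2, over its own set of tested genes, the share was 55.6% in KO vs WT, against 76.2% by edgeR. It was 55.1% in KO+STAMBP vs KO and 58.9% in KO+CFLAR vs KO, against 77.9% and 78.0%. KO+CFLAR vs KO+STAMBP gave 1.72% with at least 50 counts in 2 libraries and 3.25% by DESeq2. KO1 vs KO2 gave 0.102% by DESeq2. The cause of these shifts was not tested. Leaving out 1 library at a time, 2 to 4 of the 9 were called in KO+STAMBP vs WT (2 without WT replicate 1 or KO+STAMBP replicate 2), 0 to 1 in KO+CFLAR vs KO+STAMBP (0 without either KO+STAMBP library or KO+CFLAR replicate 1), 5 in KO+CFLAR vs WT and 0 in KO1 vs KO2. The share of all genes called then ran from 0.122% to 1.43% in KO+CFLAR vs KO+STAMBP and from 0.0915% to 0.263% in KO1 vs KO2.

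Signs turned among changes that were not called. NFE2L2 was at 0.02 in both rescues vs WT with library size alone, and at 0.00 in KO+CFLAR vs WT without the filter or with the stricter one; NQO1 was at 0.00 in KO+STAMBP vs WT without the filter. With 1 library left out, KO+STAMBP vs WT ran from -0.04 to 0.04 for NQO1 and -0.07 to 0.03 for NFE2L2, and KO+CFLAR vs WT from -0.04 to 0.03 for NFE2L2. KO+CFLAR vs KO+STAMBP ran from -0.16 to 0.13 for GCLM, -0.04 to 0.07 for NFE2L2, -0.07 to 0.01 for TXNRD1 and -0.15 to 0.04 for SLC7A11. KO1 vs KO2 ran from -0.09 to 0.01 for ME1 and -0.05 to 0.07 for NQO1.

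Scaling by library size alone moved the median of all genes by -0.18 in KO vs WT, 0.21 in KO+STAMBP vs KO and 0.20 in KO+CFLAR vs KO, and the share of called genes that were higher in KO+CFLAR vs KO+STAMBP from 57.6% to 47.0%. Replicate numbers did not pair the libraries (correlations of deviations -0.021 to 0.072); with the number as a replicate block, 9, 9, 9, 4, 5, 1 and 0 of the 9 were called in the 7 comparisons, as without it, and 76.1%, 1.43% and 0.142% of all genes in KO vs WT, KO+CFLAR vs KO+STAMBP and KO1 vs KO2.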

Other observations

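Within glutathione use, a set of transferases and exporters moved against the 9 genes; these genes were chosen after their values were seen. GSTA4, which conjugates lipid aldehydes to glutathione, went from 153 ± 0.27 CPM (WT) to 19.0 ± 0.84 CPM (knockout) (edgeR, log2 -3.01 ± 0.04, adjusted p = 6.39e-17), and at 201 and 196 CPM on average in KO+STAMBP and the libraries labelled KO+CFLAR. GSTM2, GSTM3 and GSTM4 were also lower in the knockout, by -2.44, -2.35 and -2.20. Their counts are uncertain, since reads may be shared among related GSTM genes. The exporters ABCC4 and ABCC5 were lower by -2.31 and -0.99, where ABCC1 rose by 2.24.

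Among genes that control NRF2, MAFF, a small MAF protein, went from 5.42 CPM in WT to 77.1 CPM in the knockout (log2 3.82, adjusted p = 1.29e-13) and was at 3.26 and 3.40 CPM in the rescues. NFE2L3, a relative of NFE2L2, rose by 2.43. These genes were likewise chosen after their values were seen.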
